A study of Mus musculus with 10 samples.

Results

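The genes described here are Pdgfra, Cspg4, Olig1, Olig2 and Nkx2-2, which together mark and specify oligodendrocyte precursor cells. They were chosen as the transcript clusters whose single annotated gene symbol is one of these names, with the highest mean over the arrays deciding where a gene has several. Each of the 5 had 1 transcript cluster, so 5 of 23238 transcript clusters, or 5 of 14807 named genes, are described. The 5 genes were selected on log2 levels seen in an earlier analysis of these arrays, among them their difference between the tumour types, which is therefore given below as a description with no test.

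RNA from 10 mouse samples was hybridised to Affymetrix exon arrays, 1 sample per array. Every sample carried floxed alleles of p53 and Rb on both chromosomes (genotype p53/Rb Flox-Hom) on a mixed background of C57, FVB and mostly 129 Ola, so the groups share this genotype and no tissue without floxed alleles was measured. The tumours were 3 PNET (primitive neuroectodermal tumours) and 1 oligo-astrocytoma (replicate 44) that arose after intra-cranioventricular injection of AdCre, an adenovirus that delivers Cre recombinase, and 3 oligo-astrocytomas (replicates 4, 5 and 6) that grew from grafted spheres transduced with AdCre in vitro. The cultures were neurospheres at passage 3, 2 of them transduced with AdCre and 1 with AdGFP, a virus that carries green fluorescent protein instead of Cre. The labels give no age, no sex, no count of animals and no driver that limits Cre to a cell type, and they do not say which sphere line gave which graft. Tumour type and derivation are nearly tied, since each PNET but only 1 of the 4 oligo-astrocytomas arose after injection.

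Oligodendrocyte precursors are the dividing glial cells of the brain from which myelinating oligodendrocytes form. Pdgfra encodes the receptor tyrosine kinase through which PDGF-A keeps these cells dividing, and Cspg4 encodes NG2, the chondroitin sulfate proteoglycan on their surface that pericytes also carry. Olig1 and Olig2 are basic helix-loop-helix factors and Nkx2-2 is a homeodomain factor, all of them downstream of Sonic hedgehog in the ventral neural tube, where Olig2 specifies the lineage and Nkx2-2 acts as precursors differentiate.

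The promoter sequences of the receptor gene and of both kinds of transcription factor are shown because helix-loop-helix factors such as Olig2 bind E-boxes. They come from RefSeq on GRCm38.p6 and run from 250 bases before to 50 bases after the annotated start, on the gene's own strand, and 4 of the 5 genes matched the promoter table, Olig1 being named only. Capitals mark every E-box, searched as CANNTG, which reads the same on both strands.

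Pdgfra: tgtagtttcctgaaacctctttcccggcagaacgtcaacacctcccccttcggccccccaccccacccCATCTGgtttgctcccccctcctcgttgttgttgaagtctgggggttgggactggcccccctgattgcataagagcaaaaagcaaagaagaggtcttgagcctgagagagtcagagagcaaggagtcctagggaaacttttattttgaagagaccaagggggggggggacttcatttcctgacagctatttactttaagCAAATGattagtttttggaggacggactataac

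Nkx2-2: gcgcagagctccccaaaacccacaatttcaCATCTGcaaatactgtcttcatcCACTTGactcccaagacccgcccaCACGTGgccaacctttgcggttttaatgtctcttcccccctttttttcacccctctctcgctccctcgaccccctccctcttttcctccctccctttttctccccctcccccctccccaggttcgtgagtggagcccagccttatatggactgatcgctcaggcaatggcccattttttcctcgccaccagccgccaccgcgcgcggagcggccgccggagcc

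Olig2: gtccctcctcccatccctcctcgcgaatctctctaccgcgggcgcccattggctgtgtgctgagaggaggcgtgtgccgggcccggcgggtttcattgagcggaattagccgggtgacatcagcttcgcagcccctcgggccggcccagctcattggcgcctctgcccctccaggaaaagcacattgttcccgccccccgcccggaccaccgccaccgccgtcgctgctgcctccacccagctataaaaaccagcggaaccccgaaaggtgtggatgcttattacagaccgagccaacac

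The Pdgfra window (chr5:75152001-75152300, plus strand) held 2 E-boxes, the upstream one being CATCTG and the downstream one CAAATG, and 5 CpG dinucleotides. The Nkx2-2 window (chr2:147186353-147186652, minus strand) held 3, which in 5′ to 3′ order read CATCTG, then CACTTG, then CACGTG, with 17 CpG. The Olig2 window (chr16:91225300-91225599, plus strand) and the Cspg4 window (chr9:56864854-56865153, plus strand) held 0 E-boxes, with 25 and 17 CpG. Of 32851 promoter windows of the same length, 72.3% held an E-box and the median window had 7.0 CpG. CATCTG, singled out after it was seen in the windows of both Pdgfra and Nkx2-2, or its reverse strand CAGATG, stood in 17.2% of windows. GC boxes (GGGCGG, either strand) numbered 2 in Olig2, 2 in Cspg4, 1 in Nkx2-2 and 0 in Pdgfra, against 35.7% of all windows with at least 1. The motif AAGTG on either strand, the core recognised by the NK2 homeodomain class, occurred 1 time in the Nkx2-2 window, inside the E-box CACTTG, and in 46.4% of all windows. These matches describe letters in 1 window per gene and are no evidence of binding.

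Values below are log2 expression levels from the RMA summaries, so a step of 1 is a doubling, and levels are set against each other only within a gene. The lower quartile of an array lay between 4.22 and 4.44 and its median between 5.87 and 6.06, which is the only yardstick for a dim gene because the files carry no detection call. Across all transcript clusters, pairs of PNET arrays correlated at 0.957 to 0.974, pairs of oligo-astrocytoma arrays at 0.951 to 0.967 and pairs of sphere arrays at 0.971 to 0.975. Rb1, 1 of the 2 floxed genes, stood at 8.49 in the AdGFP sphere and at 6.65 and 6.34 in the AdCre spheres. It lay between 6.36 and 7.24 in the oligo-astrocytomas and between 7.48 and 7.64 in the PNET. Its transcript cluster covers the whole gene and can include exons outside the deleted part, so it checks the labels only in part. As markers of the labelled tissues, the mean of 7 neural stem cell genes was 9.98 to 10.32 in the spheres. That of 6 astrocyte genes was 8.0 to 8.42 in the oligo-astrocytomas, lower than the 8.51 to 10.24 of the spheres. That of 9 neuronal genes was 7.60 to 8.07 in the PNET and 6.87 to 6.95 in the spheres. Only 4 of these 9 genes passed as higher in PNET than in AdCre spheres and 1 as lower, with a median difference of 0.01. In the PNET 7 photoreceptor and pineal genes averaged 9.01 to 9.74.

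Pdgfra, the receptor gene, read 4.62, 4.69 and 4.54 in the PNET, near the lower quartile of their arrays. The grafted oligo-astrocytomas read 10.92, 10.97 and 11.29, and the AdCre-induced one 10.85. In the spheres it was 7.86 and 6.66 after AdCre and 5.98 after AdGFP. All 4 oligo-astrocytomas lay above all 3 spheres, and all 3 spheres above all 3 PNET, with no overlap. From the lowest level up, the order of group values was PNET, AdGFP sphere, AdCre spheres, AdCre-induced and then grafted oligo-astrocytoma. Neighbours in that order whose difference missed the limma threshold were the AdGFP and AdCre spheres, and the AdCre-induced and grafted tumours, while PNET and the AdGFP sphere were not tested against each other.

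Cspg4, the NG2 proteoglycan gene, read 5.85, 6.28 and 6.92 in the PNET. In the oligo-astrocytomas it was 9.05 in the AdCre-induced tumour and 7.69, 7.82 and 8.24 in the grafted ones, and in the spheres it was 8.55 and 8.32 after AdCre and 8.47 after AdGFP. The grafted tumours lay just below the spheres, the AdCre-induced tumour above them, and the PNET below all other samples.

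Olig1, whose product promotes precursor maturation and myelin repair, stood at 7.20, 6.76 and 6.35 among the PNET and at 9.85, 9.60 and 10.11 among the grafted oligo-astrocytomas, with 10.26 for the AdCre-induced tumour. The AdCre spheres stood at 11.08 and 10.91 and the AdGFP sphere at 11.66. Olig2, the lineage-specifying factor, read 5.76, 6.15 and 5.86 in the PNET, 8.88, 9.19 and 9.46 in the grafted tumours, 9.08 in the AdCre-induced tumour, 9.81 and 9.75 in the AdCre spheres and 10.31 in the AdGFP sphere. For both Olig genes the spheres were highest, the oligo-astrocytomas next and the PNET lowest, and these 3 ranges did not overlap.

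Nkx2-2, the homeodomain factor of differentiating precursors, read 4.98, 4.47 and 4.40 in the PNET, where 1 of 3 values was below the lower quartile of its array. It read 7.92, 7.47 and 6.58 in the grafted oligo-astrocytomas, 7.69 in the AdCre-induced tumour, 7.32 and 6.38 in the AdCre spheres and 6.10 in the AdGFP sphere. The ranges of oligo-astrocytomas and AdCre spheres overlapped, and the PNET lay below both.

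**Figure D1:**
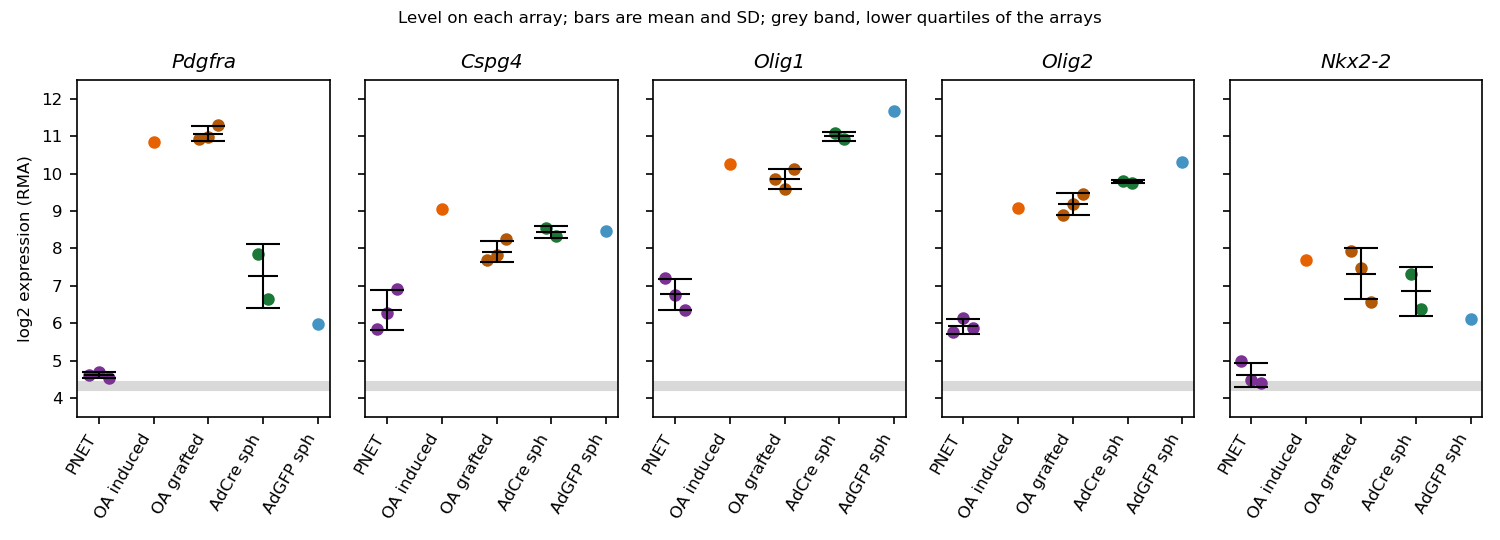
Each panel plots the log2 level of 1 gene on every array, by group, with bars for the mean and SD of groups of 2 or 3 and a grey band over the range of the arrays' lower quartiles (4.22 to 4.44). Pdgfra peaks in the oligo-astrocytomas at 10.85 to 11.29, whereas Olig1 and Olig2 are highest in the spheres, and all 5 genes are lowest in the PNET.

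The contrast of oligo-astrocytomas with AdCre spheres sets the tumours against cultures of the kind from which 3 of them were grafted. The labels do not say whether the measured cultures gave these grafts. Pdgfra rose and both Olig genes fell, while Cspg4 and Nkx2-2 did not pass the test. Pdgfra averaged 11.01 ± 0.19 (SD, n = 4) in the tumours and 7.26 ± 0.85 (SD, n = 2) in the spheres, a difference of 3.74 ± 0.30 (SE), or 13.4-fold (limma adjusted p = 0.000222). Olig1 differed by -1.04 ± 0.27 (limma adjusted p = 0.0171) and Olig2 by -0.63 ± 0.20 (limma adjusted p = 0.041). Cspg4 differed by -0.23 ± 0.40 and Nkx2-2 by 0.56 ± 0.40 (limma adjusted p = 0.689 and 0.305). Thus 3 of the 5 genes passed, against 32.8% of all transcript clusters (10.1% higher and 22.8% lower). The groups did not overlap for the same 3 genes, as was so for 15.6% of all transcript clusters on the higher side and 38.4% on the lower side. The samples are bulk RNA, in which fewer cells of a type and less RNA per cell cannot be told apart.

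The rise of Pdgfra passed under each alternative run, between 3.14 and 4.35 with 1 sample left out. The falls of the Olig genes did not keep their call. After quantile normalization between arrays Olig1 differed by -0.63 and Olig2 by -0.15 (limma adjusted p = 0.128 and 0.671), and without AdCre sphere 1 or 2 the adjusted p from limma was 0.109 or 0.0644 for Olig1 and 0.175 or 0.131 for Olig2. Olig2 also missed the threshold without the AdCre-induced tumour (limma adjusted p = 0.0731), graft 4 (0.0811) or graft 5 (0.0677), and with arrays centred on their medians (0.0847). Cspg4 changed sign under quantile normalization, to 0.29, so its direction is not settled. The median over all transcript clusters was -0.23 as deposited, -0.10 after quantile normalization and -0.15 after centring. Relative to the median as deposited, the differences of Pdgfra, Olig1 and Olig2 were 3.97, -0.81 and -0.40. Calls over the array split into 2341 higher and 5291 lower as deposited, 2604 and 2870 after quantile normalization, and 2627 and 4582 after centring.

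In the contrast of PNET with AdCre spheres all 5 genes were lower, by the most for Olig1 and Olig2. Olig1 differed by -4.22 ± 0.28 (18.7-fold lower, limma adjusted p = 3.2e-05) and Olig2 by -3.85 ± 0.21 (14.5-fold lower, limma adjusted p = 1.39e-05). Pdgfra was 6.24-fold lower, at -2.64 ± 0.32 (limma adjusted p = 0.000381). Nkx2-2 was 4.70-fold lower and Cspg4 4.25-fold lower, at -2.23 ± 0.42 and -2.09 ± 0.42 (limma adjusted p = 0.00326 and 0.00477). Of all transcript clusters 37.0% passed in this contrast, and 25.9% passed on the lower side. The groups did not overlap for any of the 5 genes, nor, on the lower side, for 41.6% of all transcript clusters. All 5 genes stayed past the threshold in each alternative run, with differences for Pdgfra from -3.24 to -2.04 when 1 sample was left out. The median over all transcript clusters was -0.21 as deposited and -0.07 both after quantile normalization and after centring. Calls split into 2564 higher and 6026 lower as deposited, 3267 and 3433 after quantile normalization, and 3128 and 4948 after centring.

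Both contrasts share the AdCre spheres. Read side by side, Pdgfra stood 3.74 above the spheres in oligo-astrocytoma and 2.64 below them in PNET, whereas Olig1 stood at -1.04 and -4.22 and Olig2 at -0.63 and -3.85. Directly between the tumour types, which is a description here, PNET minus oligo-astrocytoma was -6.39 for Pdgfra, -3.23 for Olig2, -3.19 for Olig1, -2.80 for Nkx2-2 and -1.85 for Cspg4. The groups did not overlap for any of the 5 genes, as was so, on the lower side, for 12.8% of all transcript clusters, and 7.20% passed the limma threshold on that side. With the AdCre-induced tumour alone, which shares its derivation with the PNET, the difference of Cspg4 was -2.70 and that of Pdgfra -6.23.

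Between AdCre and AdGFP spheres 0 of the 5 genes passed the limma test, and 1 had an unadjusted p under 0.05. That gene was Pdgfra, 1.28 ± 0.42 higher after AdCre (unadjusted p = 0.0138, limma adjusted p = 0.731), with both AdCre spheres, at 7.86 and 6.66, above the AdGFP sphere at 5.98. Over the array 4 transcript clusters passed (0.0172%) and 1152 had an unadjusted p under 0.05. Nkx2-2 differed by 0.75 ± 0.56, Cspg4 by -0.04 ± 0.57, Olig2 by -0.53 ± 0.29 and Olig1 by -0.67 ± 0.38, each with a limma adjusted p of 1. With 1 AdGFP sphere, whose spread is taken from the other groups, the test has little power, and these values do not show that the cultures are alike.

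Between the AdCre-induced and the grafted oligo-astrocytomas 0 of the 5 genes passed as well. Cspg4 was 1.13 ± 0.41 higher in the AdCre-induced tumour (unadjusted p = 0.0227, limma adjusted p = 0.521), the only 1 of the 5 with an unadjusted p under 0.05. Pdgfra differed by -0.21 ± 0.41, Olig1 by 0.41 ± 0.35, Olig2 by -0.09 ± 0.28 and Nkx2-2 by 0.37 ± 0.54 (limma adjusted p from 0.931 to 0.997). Over the array 70 transcript clusters passed (0.301%) and 1755 had an unadjusted p under 0.05. The comparison rests on 1 AdCre-induced tumour. Of 11 microglial genes 0 passed the limma test here, 9 had an unadjusted p under 0.05 on the higher side, and their mean was 8.61 in that tumour against 6.71 to 7.88 in the grafts. Their part in the Cspg4 value was not tested.

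**Figure D2:**
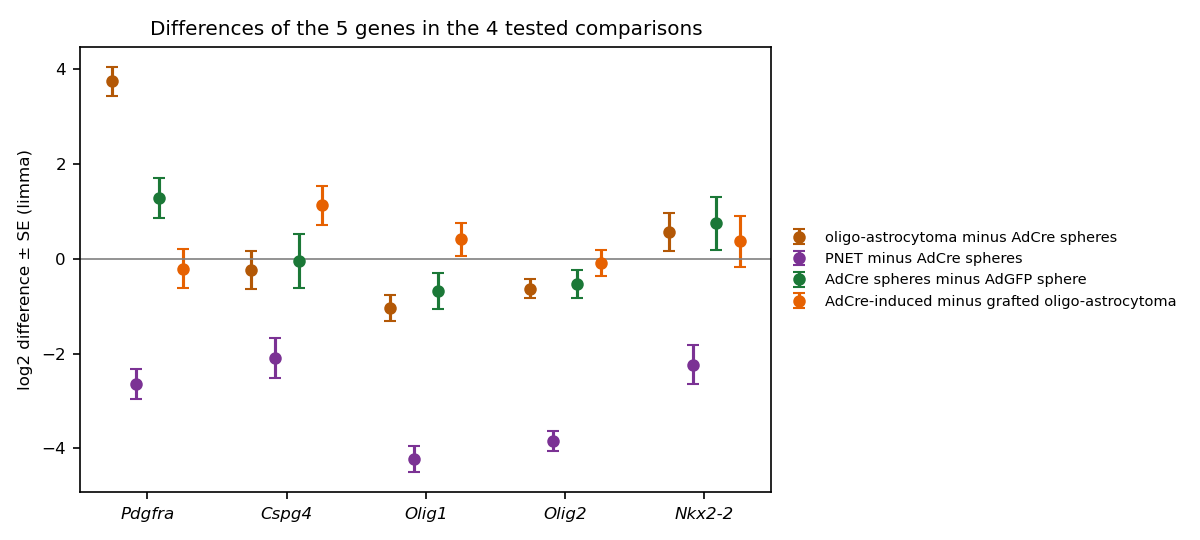
Points give the log2 difference of each gene in the 4 tested comparisons, with the limma standard error. Pdgfra lies at 3.74 in oligo-astrocytoma and at -2.64 in PNET relative to the AdCre spheres, whereas both Olig genes lie below 0 in both.

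The ligands did not move with their receptor as 1 group. Pdgfa, which encodes a ligand of PDGFRA though not the only one, read 8.04, 7.15 and 7.07 in the grafts and 7.28 in the AdCre-induced tumour. It read 7.69 and 7.46 in the AdCre spheres and 5.94, 6.04 and 6.33 in the PNET. Pdgfa did not pass between oligo-astrocytomas and AdCre spheres (-0.19 ± 0.28, limma adjusted p = 0.643), with 0.31 after quantile normalization, and was lower in PNET than in AdCre spheres by a log2 difference of -1.47 ± 0.29 (limma adjusted p = 0.0045). Pdgfd, whose product acts mainly on PDGFRB, was 1.86 ± 0.39 higher in oligo-astrocytomas and 2.17 ± 0.41 higher in PNET than in AdCre spheres (limma adjusted p = 0.0069 and 0.0034). The first of these missed the threshold without AdCre sphere 2 (limma adjusted p = 0.0608). Pdgfb passed in oligo-astrocytomas at 0.52 ± 0.18 (limma adjusted p = 0.0469), a call lost without any 1 of the 6 samples, and Pdgfc, at -0.35 ± 0.25, did not pass (limma adjusted p = 0.305). Of the 4 ligand genes 2 were thus higher in oligo-astrocytomas than in AdCre spheres and 0 lower, with a median difference of 0.17. Over all transcript clusters 10.1% were higher and 22.8% lower, with a median of -0.23.

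Of 7 measured relatives of the receptor, 4 were higher and 1 lower in oligo-astrocytomas than in AdCre spheres, with a median of 1.31. Over all transcript clusters 10.1% were higher and 22.8% lower, with a median of -0.23. Csf1r, the receptor of microglia and macrophages, was 2.61 ± 0.50 higher, and Kit and Kdr, which lie beside Pdgfra on the chromosome, were 2.49 ± 0.68 and 2.46 ± 0.71 higher (limma adjusted p = 0.00479, 0.0216 and 0.0266). Pdgfrb, the pericyte receptor, was 1.31 ± 0.40 higher (limma adjusted p = 0.033), and Pdgfrl, a gene for a receptor-like protein, was lower at -1.30 ± 0.25 (limma adjusted p = 0.00475). The calls of Kit, Kdr and Pdgfrb were lost without AdCre sphere 1 or 2 (limma adjusted p between 0.0722 and 0.201), those of Kdr and Pdgfrb also without graft 6 (0.0553 and 0.0544), and that of Pdgfrb without graft 4 (0.0605). With the AdCre-induced tumour alone the differences of Kit, Kdr and Pdgfrb were smaller, at 0.96, 1.39 and 0.93, whereas Csf1r was highest in that tumour, at 8.62. Among markers of cell types that carry these receptors, 10 of 11 microglial and 7 of 7 endothelial genes were higher in oligo-astrocytomas. The share over all transcript clusters was 10.1%. The mean of the microglial genes was 6.71 to 8.61 in oligo-astrocytomas and 4.82 to 4.86 in AdCre spheres, and that of the endothelial genes 6.27 to 6.87 and 4.60 to 4.68. Their part in the receptor family counts was not tested.

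Pdgfra is also known from fibroblasts and Cspg4 from pericytes. In oligo-astrocytomas 3 of 10 pericyte and smooth muscle genes and 1 of 7 fibroblast and leptomeningeal genes were higher than in AdCre spheres. No gene of either list was lower, and 10.1% of all transcript clusters were higher. After quantile normalization the counts of higher genes were 3 and 0. The differences of the 7 fibroblast genes ran from 0.32 to 4.25, with a median of 1.06 against -0.23 over all transcript clusters. The fibroblast genes averaged 6.4 to 8.21 in oligo-astrocytomas, 6.87 to 7.43 in PNET and 5.52 to 5.58 in AdCre spheres. The oligo-astrocytomas thus stood above the AdCre spheres for this list as for Pdgfra, and the PNET, in which Pdgfra was lowest, lay within their range. The pericyte genes averaged 5.58 to 6.09, 5.73 to 6.24 and 5.07 to 5.25 in the same order, while Cspg4 was lowest in the PNET. The part of fibroblasts and pericytes in the levels of Pdgfra and Cspg4 was not tested. Array values have no true 0, so no marker can be called absent.

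Downstream of the receptor, 7 of 21 measured signal transducers were lower in oligo-astrocytomas than in AdCre spheres and 0 higher, with a median of -0.43, beside 22.8% lower and a median of -0.23 over all transcript clusters. The lowest were Map2k1, the MAP kinase kinase MEK1, at -1.74 ± 0.26, the adaptor Nck1 at -1.71 ± 0.19, the kinase Src at -1.14 ± 0.20 and the adaptor Grb2 at -1.14 ± 0.20 (limma adjusted p from 0.000568 to 0.00306). That direction depends on the scaling, since after quantile normalization 6 of the 21 were higher and 3 lower, with a median of 0.07, and Src missed the threshold (limma adjusted p = 0.0503). In PNET 16 of the 21 were lower than in AdCre spheres and 0 higher, with a median of -1.20. Over all transcript clusters 25.9% were lower and the median was -0.21. After quantile normalization 9 of the 21 were lower. Fyn, a Src family kinase needed for oligodendrocyte maturation, had the largest difference, -3.67 ± 0.16 (limma adjusted p = 5.03e-06), against -0.10 ± 0.15 in oligo-astrocytomas (limma adjusted p = 0.641).

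Of 14 measured feedback and target genes that MAP kinase signalling induces, 7 were lower in oligo-astrocytomas than in AdCre spheres, 0 were higher and 7 did not pass, with a median of -1.52 against -0.23 over all transcript clusters and a share of 22.8% lower. Spry4, a feedback inhibitor, read 7.31 in the AdCre-induced tumour, 6.97, 5.66 and 6.15 in the grafts, and 8.93 and 9.26 in the AdCre spheres, a difference of -2.57 ± 0.44 (limma adjusted p = 0.00293). The phosphatase gene Dusp4 differed by -2.51 ± 0.43, the ETS factor gene Etv4 by -2.26 ± 0.35 and the feedback inhibitor gene Spry2 by -2.20 ± 0.57 (limma adjusted p = 0.00273, 0.00175 and 0.0163). Spry2 missed the threshold without AdCre sphere 1 or 2 (limma adjusted p = 0.0815 and 0.0838). After quantile normalization 5 were lower, and with the AdCre-induced tumour alone 2. Ccnd1, the cyclin D1 gene, read 12.81 in that tumour, above the 11.14 to 12.07 of the spheres. The count moved to 4 without AdCre sphere 1 or 2 and to 11 without the AdCre-induced tumour, whose mean over the list was 8.44 against 6.81 to 7.83 in the grafts and 8.96 to 9.24 in the AdCre spheres.

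In PNET all 14 measured MAP kinase genes were lower than in AdCre spheres, with a median of -2.82, and 10 after quantile normalization. Over all transcript clusters 25.9% were lower and the median was -0.21. Ccnd1, which mitogens induce, differed by -5.10 ± 1.12, the ETS factor genes Etv5 and Etv4 by -3.77 ± 0.48 and -3.57 ± 0.36, and Spry4 by -3.43 ± 0.47 (limma adjusted p = 0.00689, 0.000512, 0.000184 and 0.000739). Without AdCre sphere 2 the count was 9. The spheres were the highest group for the list, at 8.96 and 9.24 after AdCre and 9.39 after AdGFP, and the labels do not state which growth factors the medium held, so the part of culture medium in these differences was not tested.

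**Figure D3:**
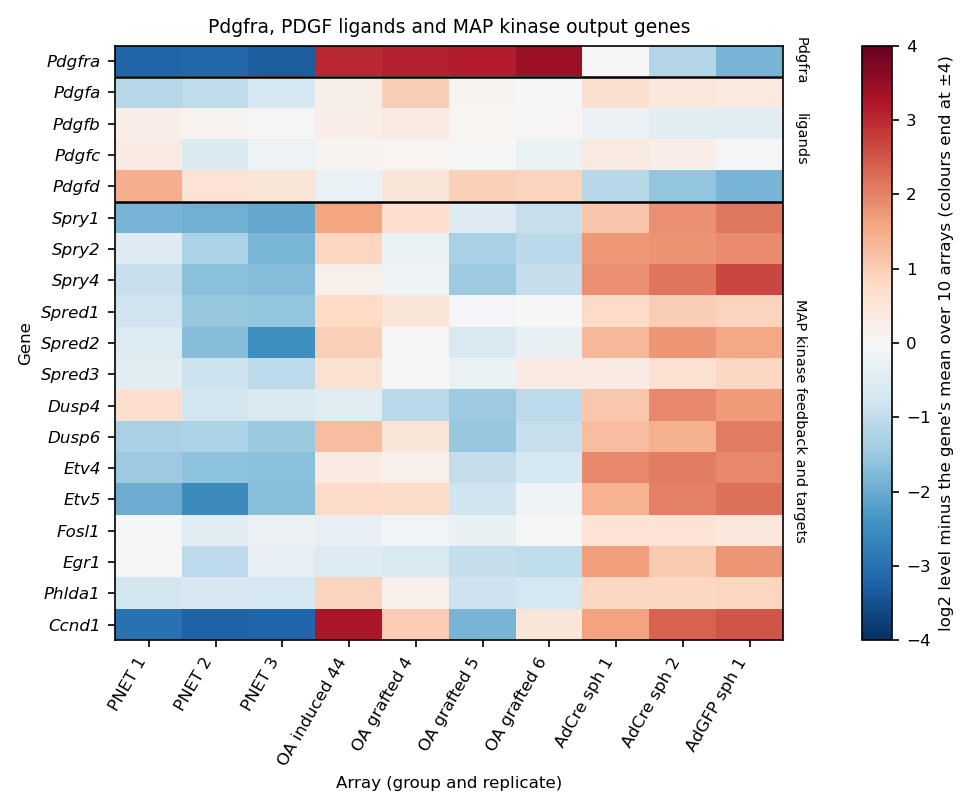
Colours show the log2 level on each array minus the gene's mean over the 10 arrays, for Pdgfra, the 4 ligand genes and the 14 MAP kinase feedback and target genes. The mean over the MAP kinase genes is highest in the spheres, at 8.96 to 9.39, and lowest in 2 of the PNET, at 6.25, but single genes depart from this, such as Ccnd1, which is highest in the AdCre-induced tumour at 12.81. Pdgfra is highest in all 4 oligo-astrocytomas.

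Among 18 other measured genes of oligodendrocyte precursors, 9 were higher and 2 lower in oligo-astrocytomas than in AdCre spheres, with a median of 1.40 and a share of 10.1% higher over the array. The gap junction gene Gjc3 was 4.29 ± 0.84 higher, Bcas1, a marker of early myelinating cells, 3.14 ± 0.48, the proteoglycan gene Vcan 2.83 ± 0.75 and the receptor gene Gpr17 of committed precursors 2.64 ± 0.84 (limma adjusted p = 0.005, 0.00172, 0.0185 and 0.039). The count fell to 3 without AdCre sphere 2. In that case Gjc3, Vcan and Gpr17 missed the threshold (limma adjusted p = 0.0514, 0.143 and 0.292), and Gpr17 also did so without graft 4, 5 or 6 (0.0661, 0.0765 and 0.0777). Cspg5 and Xylt1 were lower, at -1.98 ± 0.54 and -0.81 ± 0.26 (limma adjusted p = 0.0204 and 0.0424), calls that quantile normalization ended (0.0728 and 0.482), as did leaving out either AdCre sphere.

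The 2 AdCre spheres differed from each other in this gene group. Gpr17 read 9.54 in sphere 1 and 5.67 in sphere 2, Bcas1 read 8.01 and 5.84, and Sox10, the Sox factor of the whole lineage, read 7.43 and 6.30. Sphere 1 was also the higher of the pair for Pdgfra and Nkx2-2, while Olig1 and Olig2 differed between them by under 0.2. The mean of 6 astrocyte genes was 10.24 in sphere 1 and 8.51 in sphere 2, against 8.70 in the AdGFP sphere. A part of other cell types in these values was not tested.

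In PNET 12 of the 18 precursor genes were lower than in AdCre spheres and 0 higher, with a median of -2.27. Over all transcript clusters 25.9% were lower and the median was -0.21. Bcan, the gene of the proteoglycan brevican, differed by -5.16 ± 0.49, Sox6 by -4.13 ± 0.27, Cacng4 by -3.22 ± 0.36 and Tnr, the tenascin-R gene, by -3.19 ± 0.56 (limma adjusted p = 0.000138, 2.92e-05, 3e-04 and 0.00245). The mean over the list was 5.43 to 5.81 in PNET, 7.36 and 8.56 in AdCre spheres and 9.10 to 9.28 in oligo-astrocytomas. Between tumour types, again as a description, the median of these 18 genes was -3.46 and 15 lay past the limma threshold on the lower side. Of all transcript clusters 7.20% did so.

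Genes of differentiation were mixed. Of 18 measured regulators and early genes 6 were higher and 1 lower in oligo-astrocytomas than in AdCre spheres, with a median of 1.10. Over all transcript clusters 10.1% were higher and 22.8% lower, with a median of -0.23. Enpp6, a marker of newly formed oligodendrocytes, was 3.24 ± 0.65 higher, the neurofascin gene Nfasc 2.50 ± 0.33, the transcription factor gene Zfp488 2.31 ± 0.43 and the myelin basic protein gene Mbp 2.07 ± 0.67 (limma adjusted p = 0.0058, 0.000941, 0.00398 and 0.0403). Mbp missed the threshold without AdCre sphere 1 or 2 or without graft 4 or 5 (limma adjusted p from 0.0654 to 0.231). With the AdCre-induced tumour alone the differences of Enpp6, Zfp488 and Mbp were smaller, at 2.28, 1.94 and 1.05, while that of Nfasc was at least 2.41. Zfp24 was lower, at -1.15 ± 0.19 (limma adjusted p = 0.00244). The mean of 8 mature oligodendrocyte genes was 8.18 in graft 4, 6.42 in graft 5, 5.63 in graft 6 and 6.21 in the AdCre-induced tumour, against 4.98 and 5.59 in AdCre spheres, and Mog, a gene of the outer myelin surface, reached 10.06 in graft 4 and 6.08 to 6.65 in the other tumours of this type. Pdgfra did not follow this gradient, at 10.92 in graft 4 and 11.29 in graft 6. In PNET 8 of the 18 were lower than in AdCre spheres, beside 25.9% lower over all transcript clusters. The repressor gene Zfp536 was the 1 higher gene, by 3.26 ± 0.69 (limma adjusted p = 0.00572). After quantile normalization 6 were lower and 2 higher.

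**Figure D4:**
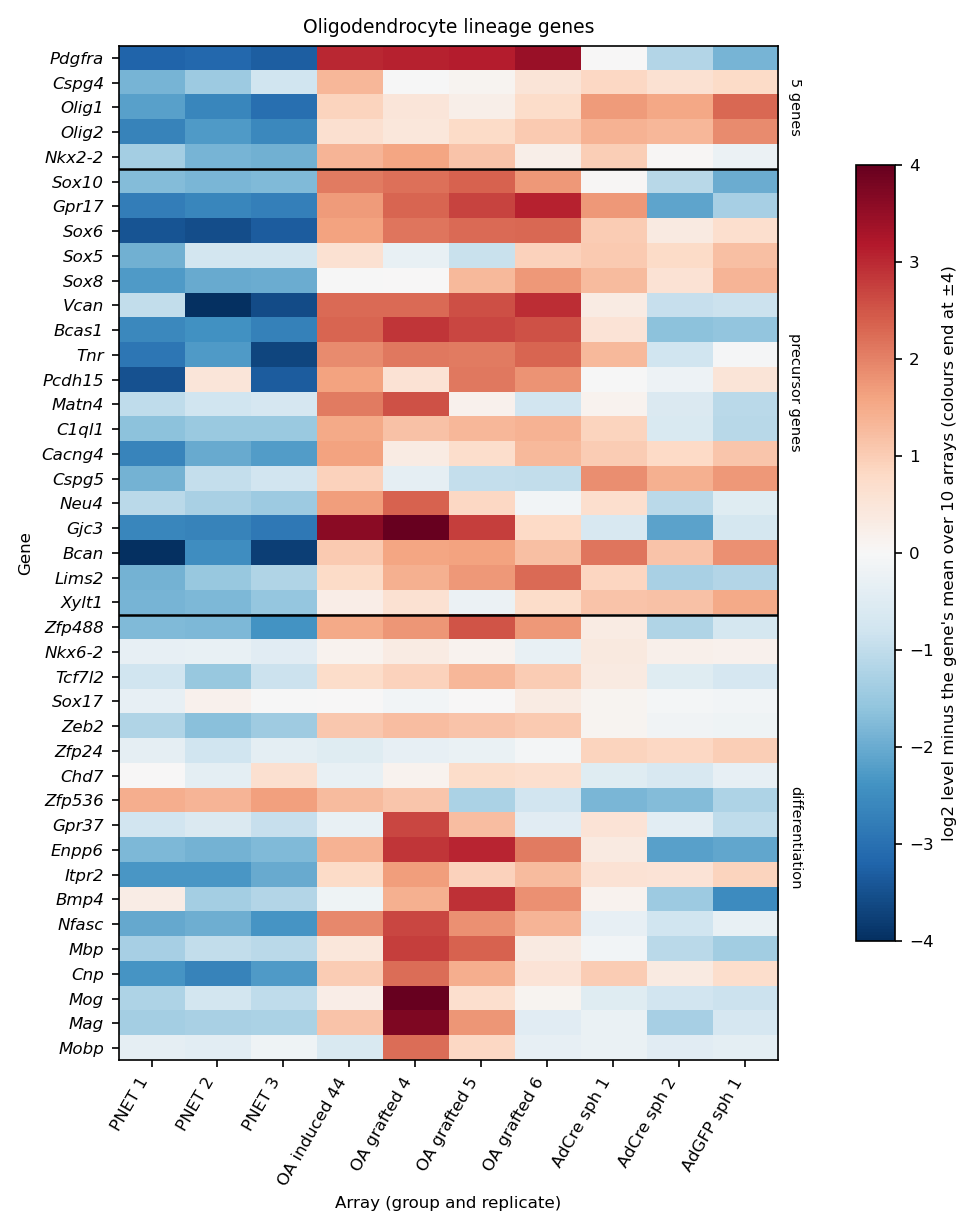
Colours show the log2 level on each array minus the gene's mean over the 10 arrays, for the 5 genes, 18 other precursor genes and 18 differentiation genes. Most rows are low in the PNET, AdCre sphere 1 is higher than sphere 2 in rows such as Gpr17 and Enpp6, and graft 4 carries the highest Mog and Mag.

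Of 11 measured helix-loop-helix genes whose products pair with the Olig factors or oppose them, 4 were lower in oligo-astrocytomas than in AdCre spheres and 0 higher. Their median was -0.97, against -0.23 over all transcript clusters with 22.8% lower, and after quantile normalization 2 were lower. The members did not share 1 pattern, since Hes1 was 8.28 to 8.77 in the PNET and 8.09 to 8.28 in the spheres, and Tcf4 reached 10.46 in graft 6 against at most 10.15 in the spheres. The Notch effector genes Hes1, Hes5 and Hey1 differed by -1.78 ± 0.29, -1.70 ± 0.45 and -1.67 ± 0.21 (limma adjusted p = 0.00237, 0.0194 and 0.000828). Tcf3, which encodes an E protein that dimerises with the Olig factors, differed by -1.23 ± 0.24 (limma adjusted p = 0.0052). Quantile normalization ended the calls of Hes5 and Tcf3 (limma adjusted p = 0.0972 and 0.07), and leaving out AdCre sphere 1 ended that of Hes5 (0.136). In PNET 6 of the 11 were lower than in AdCre spheres and 0 higher, beside 25.9% lower over all transcript clusters. After quantile normalization 5 were lower. Among the 6 were Hes5 at -2.92 ± 0.48, the E protein gene Tcf4 at -2.33 ± 0.34 and the inhibitor gene Id3 at -2.13 ± 0.49 (limma adjusted p = 0.00173, 0.00101 and 0.00895). Id3 missed the threshold without AdCre sphere 1 (limma adjusted p = 0.0799).

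Of 16 measured genes of neural tube patterning and hedgehog signalling, 9 were lower and 0 higher in oligo-astrocytomas than in AdCre spheres. The median was -0.66, beside the same 22.8% lower and -0.23 over the array. The list mixes roles and is not a set of activators of Olig2 and Nkx2-2. The lower genes were led by the homeobox genes Dbx2 at -1.99 ± 0.17, Pax6 at -1.45 ± 0.37 and Dlx1 at -1.23 ± 0.31, and by the hedgehog signal transducer gene Smo at -1.15 ± 0.26 (limma adjusted p = 0.000245, 0.0156, 0.0153 and 0.00905). Without AdCre sphere 1 the calls of Pax6, Dlx1 and Smo were lost (limma adjusted p = 0.127, 0.129 and 0.0717), and quantile normalization ended those of Pax6 and Smo (0.0698 and 0.11). In PNET 8 of the 16 were lower than in AdCre spheres and 1 higher, beside 25.9% lower over all transcript clusters. After quantile normalization 7 were lower and 1 higher. The lower genes included Dbx2 at -2.22 ± 0.18, Smo at -2.22 ± 0.27 and the hedgehog receptor gene Ptch1 at -1.61 ± 0.19 (limma adjusted p = 6.76e-05, 0.000432 and 0.000381). The 1 higher gene was Gli3, a transcription factor gene of the hedgehog pathway, at 1.60 ± 0.55 (limma adjusted p = 0.0471). Its call was lost when AdCre sphere 2 or any 1 of the PNET was left out (limma adjusted p from 0.062 to 0.365). None of the 109 measured genes of these 8 lists passed between AdCre and AdGFP spheres or between the 2 kinds of oligo-astrocytoma.

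Likeness of pattern was measured as Pearson's r over the 10 arrays among 10641 named genes with a mean of at least 5. The arrays fall into a few groups, so a high r mostly says that 2 genes share the group means, and it is given as a description. The genes most like Pdgfra were Bcas1 (0.991), the AMPA receptor gene Gria4 (0.990), Sh3d19 (0.987), Inava (0.984) and Sox10 (0.977). Olig2 was closest to the neurotrophin receptor gene Ntrk3 (0.995), Traf4 (0.994) and the stem cell factor gene Sox2 (0.992), and Olig1 to Rab39b (0.994), Galnt10 (0.990) and Traf4 (0.990). Nkx2-2 was closest to Pik3r1 (0.978), which encodes a regulatory subunit of PI3 kinase, then Tmeff2 (0.973) and the potassium channel gene Kcnq3 (0.967). Cspg4 was closest to the kinase gene Jak2 (0.965), then Zfp521 (0.964) and the potassium channel gene Kcnk10 (0.961).

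Among the 5 genes themselves r was 0.98 between Olig1 and Olig2, 0.91 between Cspg4 and Olig2, 0.88 between Cspg4 and Olig1 and 0.88 between Pdgfra and Nkx2-2. Pdgfra had an r of 0.53 with Olig1, 0.61 with Olig2 and 0.62 with Cspg4. Both Olig genes were highest in the spheres and Pdgfra in the oligo-astrocytomas, and all 5 genes were lowest in the PNET.

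The order of genes on the chromosomes was taken from GRCm38.p6. Olig2 and Olig1 are next to each other on chromosome 16, and over the 10 arrays they spanned 4.55 and 5.31 log2 units. Between Eva1c and Ifngr2, the other 8 neighbours of the pair spanned 0.49 to 2.85, with Ifnar2, an interferon receptor gene, the widest. Ifnar1 shared the order of the Olig genes, with 7.06 to 8.09 in PNET, 8.15 to 8.57 in oligo-astrocytomas and 8.91 to 9.10 in spheres. Ifngr2 did so too, with 7.58 to 7.92, 7.98 to 8.48 and 9.24 to 9.34. Their r with Olig1 was 0.88 and 0.82. It was 0.67 for Ifnar2, 0.45 for Cfap298, 0.10 for Il10rb, -0.27 for 4932438H23Rik and -0.51 for Paxbp1. Eva1c had an r of 0.72 with Olig2. Pdgfra lies on chromosome 5 between Gsx2 and Kit. Kit read 8.32 in the AdCre-induced tumour, 9.57, 11.56 and 9.96 in the grafts, 7.60 and 7.13 in the AdCre spheres, 7.20 in the AdGFP sphere and 6.07 to 6.27 in the PNET. Kit was therefore, like Pdgfra, highest in all 4 oligo-astrocytomas and lowest in all 3 PNET, but its order within the oligo-astrocytomas was not that of Pdgfra. Kdr, the gene after Kit, was 9.49 and 8.94 in grafts 5 and 6, 7.0 and 7.06 in the other oligo-astrocytomas and 7.18 to 8.43 in the PNET. The 4 genes on the far side, Fip1l1, Lnx1, Chic2 and Gsx2, spanned 0.86 to 2.11. Fip1l1 shared the order of Pdgfra, with 7.83 to 8.02 in PNET, 8.68 to 8.75 in spheres and 8.99 to 9.84 in oligo-astrocytomas. Tmem165, beyond Kdr and Srd5a3, did so too, with 7.48 to 7.92, 8.83 to 9.05 and 9.12 to 9.79. Their r with Pdgfra was 0.91 and 0.90, against 0.91 for Kit. It was 0.64 for Chic2, 0.59 for Srd5a3, 0.36 for Kdr, 0.20 for Lnx1 and -0.07 for Gsx2. Arrays of RNA do not measure gene copies, and a change in copy number was not tested.

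**Figure D5:**
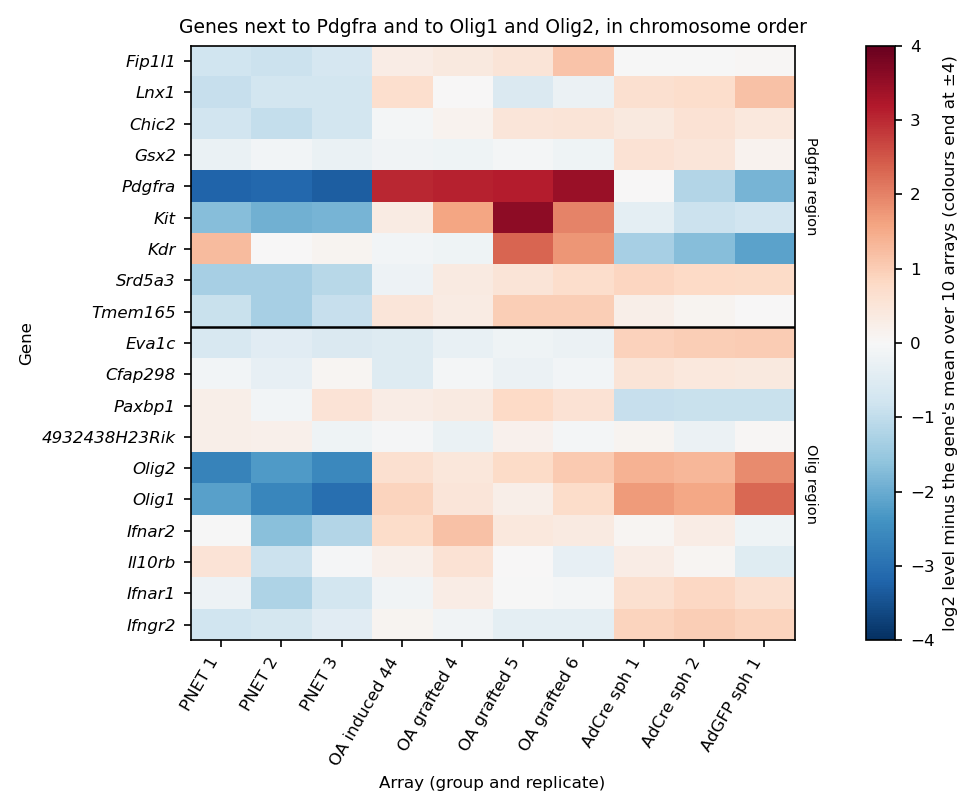
Colours show the log2 level on each array minus the gene's mean over the 10 arrays, for genes in chromosome order around Pdgfra and around Olig2 and Olig1. Pdgfra and Kit stand out in the oligo-astrocytomas, with Kit at 11.56 in graft 5. Olig2 and Olig1 span 4.55 and 5.31 log2 units over the arrays, against at most 2.85 for their neighbours. Low PNET values are not limited to the Olig genes, since Ifnar1 and Ifngr2 are also lowest in the PNET.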

How the data were processed

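The 10 samples were measured on 1-colour Affymetrix exon arrays, for which the series text names 2 versions. The deposited values are log2 expression per transcript cluster, made by the authors with Partek and RMA on mm8, per the submitters' processing notes, and the sources used here state neither tool versions nor how probe sets were combined. Values were used as deposited, with no filter. Precision is limited by the number of arrays, and where nothing says that replicates came from separate animals or cultures, p-values measure only the spread between these samples.

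Genes were named where the probe annotation gives 1 symbol (14939 transcript clusters, 989 with several and 7310 with none). limma 3.58.1 (lmFit, eBayes) in R 4.3.3 was fitted to all 10 samples in 4 groups, both kinds of oligo-astrocytoma being 1 group, or in 5 groups for the comparison within them. Tests were two-sided, with Benjamini-Hochberg adjustment over 23238 transcript clusters and a threshold of 0.05. A group of 1 sample takes its spread from the rest. The fit was tested on simulated data. The 5 genes and all lists were chosen with earlier results of these data known, and so give no independent support. Named list genes were up to 4 per direction with the largest change past the threshold and the 4 ligands. Of 128 pathway list entries 109 were measured, and of 78 marker entries 72. Likeness took the top 5 genes for Pdgfra and the top 3 for the others, and neighbours were up to 4 measured genes per side.

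Alternatives were quantile normalization (limma normalizeBetweenArrays), centring on array medians, only transcript clusters with a mean of at least 5, trended and robust moderation, the compared groups only, each kind of oligo-astrocytoma alone, all spheres as 1 group, a block on sample number and the removal of each replicate in turn.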

Additional observations from a re-analysis of the deposited data

How the results depend on the processing

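Pdgfra kept its direction and its side of the threshold in all comparisons and alternatives run, and 5 of 5 genes stayed lower in PNET than in AdCre spheres in each of them. Between oligo-astrocytomas and AdCre spheres the count of the 5 genes past the threshold was 1 after quantile normalization and with the AdCre-induced tumour alone, and 1 to 3 with 1 sample left out, the 1 coming without AdCre sphere 1 or 2. In the same contrast the MAP kinase count was 11 with grafts alone, 2 with the AdCre-induced tumour alone and 4 to 11 with 1 sample left out, and the precursor count was 3 with the AdCre-induced tumour alone and 3 to 9 with 1 left out. In PNET against AdCre spheres, with 1 left out, the MAP kinase count was 9 to 13 and the precursor count 9 to 13. Signs turned in values that never passed the test. In oligo-astrocytomas against AdCre spheres these were Cspg4, to 0.29 after quantile normalization and 0.62 with the AdCre-induced tumour alone, Pdgfa, to 0.31 after quantile normalization, and Rb1, to -0.36 with all spheres as 1 group. Between AdCre and AdGFP spheres, Pdgfb turned to -0.01 after quantile normalization and ranged from -0.04 to 0.19 with 1 AdCre sphere left out (below 0 without sphere 1), and Cspg4 from -0.15 to 0.08 (above 0 without sphere 2). Within oligo-astrocytomas, with 1 graft left out, Pdgfa ranged from -0.32 to 0.17 (above 0 without graft 4), Olig2 from -0.24 to 0.05 and Nkx2-2 from 0.00 to 0.67 (both turned without graft 6). The cause of these changes was not tested. The sample numbers 1 and 2 recur in PNET and spheres, and whether they pair samples is not settled. Deviations of same-numbered PNET and AdCre spheres from their group means correlated at -0.03 and -0.06. The deviations of the 2 AdCre spheres mirror each other, and the 1 AdGFP sphere has none. The correlations therefore cannot decide the question. With the number as a block Pdgfra was -2.60 in PNET against AdCre spheres (limma adjusted p = 0.0267) and 1.57 in AdCre against AdGFP spheres, the 5-gene counts were 5 and 0, and the MAP kinase and precursor counts 11 and 8. Using another transcript cluster gave no value, since each of the 5 genes has 1. Dim genes are limited by the lack of detection calls.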
